A study of Homo sapiens with 9 samples.

Results

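The miRNAs described here are both arms of the hairpins miR-146a, miR-146b and miR-155, taken from the table of raw counts by their 6 mature names. Each name had 1 row among the 2883 rows of precursor and mature miRNA (2654 distinct mature names). Of the 6 arms, 4 had a count in any library and 3 had enough counts for a test: miR-146a-5p, miR-146b-5p and miR-155-5p. Small RNA was sequenced from the E6-1 clone of Jurkat, a human leukaemic T cell line that is widely used. The groups were unactivated cells (0 h) and cells activated for 5 h or for 12 h on plates coated with anti-CD3 (10 µg/mL), which engages the T cell receptor complex. Anti-CD28 (5 µg/mL), against a costimulatory receptor, was added in solution. Each time had 3 biological replicates, and no unactivated cells at 5 h or 12 h were analysed here, so that activation and time in culture cannot be told apart. The cells are thus of 1 clone, which is known to lack the phosphatase SHIP1.

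Signals from the T cell receptor and CD28 reach the transcription factor NF-kB through the CARMA1, BCL10 and MALT1 complex and the IkB kinases. The miR-146a gene is a classic NF-kB target. Its product represses TRAF6 and IRAK1, which act upstream of the IkB kinases, and so forms a negative feedback loop. miR-146b-5p carries the same seed from a separate gene. miR-155 is cut from the transcript of the BIC gene (MIR155HG), which NF-kB and AP-1 induce in lymphocytes. Its known targets include SHIP1 and SOCS1, both of which restrain signalling.

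The mature sequences show which of these arms could share targets. All 6 arms were matched in the RefSeq table (GRCh38.p14). The seed, bases 2 to 8 from the 5′ end, is in capitals.
hsa-miR-146a-5p: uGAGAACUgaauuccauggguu
hsa-miR-146b-5p: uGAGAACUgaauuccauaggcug
hsa-miR-155-5p: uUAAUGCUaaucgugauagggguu
hsa-miR-146a-3p: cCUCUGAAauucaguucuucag
hsa-miR-146b-3p: gCCCUGUGgacucaguucuggu
hsa-miR-155-3p: cUCCUACAuauuagcauuaaca
The 5p arms of miR-146a and miR-146b had the same seed, GAGAACU, and were identical over their first 17 bases. Over 22 aligned bases they differed by G18A and U21C, counted from the 5′ end with the base of miR-146a-5p first, and miR-146b-5p was 1 base longer. How reads too short to hold a differing base were assigned is not given in the sources used here. Among 2370 mature names in the RefSeq table, 1 other carried this seed, miR-7153-5p, which had 0 counts in all 9 libraries. No other mature name in that table carried the miR-155-5p seed UAAUGCU.

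The 2 hairpins of miR-146 are shown because reads came almost entirely from 1 arm, and both arms are in capitals.
MIR146A: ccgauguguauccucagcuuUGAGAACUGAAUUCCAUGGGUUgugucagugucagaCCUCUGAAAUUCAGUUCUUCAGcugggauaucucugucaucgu
MIR146B: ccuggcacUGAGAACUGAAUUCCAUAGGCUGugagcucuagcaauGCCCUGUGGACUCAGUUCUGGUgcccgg
MIR146A lies at chr5:160485352-160485450 on the plus strand, in the last of 2 exons of the long non-coding RNA gene MIR3142HG in the GENCODE 29 annotation (GRCh38). MIR155 lies at chr21:25573980-25574044 on the plus strand, in the last of 4 exons of MIR155HG. MIR146B lies at chr10:102436512-102436584 on the plus strand and overlapped no other annotated gene. The other miRNA that gives MIR3142HG its name, miR-3142, had 0 counts in all 9 libraries.

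The total count of the table ranged from 6631839 to 16207031 per library, and replicate 3 of 0 h and replicate 3 of 12 h were the shallowest. Levels are given in CPM, counts brought by TMM scaling to a common library size. Between the deepest and the shallowest library, 3 counts stood for 0.176 to 0.471 CPM. Intervals on single libraries are exact 95% Poisson intervals of the count. They take in counting error alone. The sources used here name no molecular identifiers. Copies made by PCR are then counted as separate reads, which makes these intervals too narrow. In cultures measured as a whole, fewer cells making a miRNA and less of it per cell cannot be told apart. The 5 markers of T or blood cells were all detected, at a summed 43276 to 48662 CPM at 0 h, 44017 to 45759 CPM at 5 h and 45231 to 59577 CPM at 12 h. Of 13 markers of other cell types, 4 were at 0 in every library (miR-205-5p, miR-1-3p, miR-133a-3p and miR-124-3p). Their sum was 268 to 343 CPM at 0 h, 312 to 409 CPM at 5 h and 331 to 380 CPM at 12 h, mostly miR-223-3p, miR-200c-3p and miR-141-3p. The highest sum at 5 h was in replicate 3. There the liver marker miR-122-5p had a log2 CPM of 6.07, against 1.15 and -1.40 in replicates 1 and 2 of 5 h. With edgeR, 0 markers of either list passed in any comparison, with 1 of each list at an unadjusted p under 0.05 in each. Among T or blood cell markers this was miR-142-3p at 5 h and at 12 h against 0 h. Its log2 change was 0.32 and 0.39 (edgeR adjusted p = 0.253 and 0.0647). At 12 h against 5 h it was miR-181a-5p (log2 change 0.29, edgeR adjusted p = 0.720). DESeq2 and limma-voom each called 1 T or blood cell marker at 12 h against 0 h and 0 in the other comparisons, and 0 markers of other cell types. The part of these markers in the results was not tested.

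Of the 3 tested arms, miR-146a-5p alone rose in every comparison, and it did so in steps of similar size on the log2 scale. In replicates 1, 2 and 3 it had 253, 248 and 265 CPM at 0 h. It had 495, 497 and 442 CPM at 5 h. At 12 h it had 956, 915 and 774 CPM. The values of the 3 times did not overlap (10.8%, 12.1% and 12.8% of rows did not overlap at 5 h against 0 h, 12 h against 0 h and 12 h against 5 h), and the lowest library at 12 h was 774 CPM against 497 CPM in the highest at 5 h. The mean was 255 ± 8.91 CPM for 0 h, 478 ± 31.4 CPM for 5 h and 882 ± 95.5 CPM for 12 h (SD, n = 3 each). Among mature miRNAs ordered by mean level it stood at rank 87 of 846 with counts at 0 h, 68 of 920 at 5 h and 51 of 844 at 12 h.

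Against 0 h, miR-146a-5p was 1.87-fold higher at 5 h (log2 change 0.90, SE 0.13, edgeR adjusted p = 0.000159). It was 3.46-fold higher at 12 h (log2 change 1.79, SE 0.13, edgeR adjusted p = 1.1e-08). From the 12 h libraries against the 5 h libraries the fold was 1.85 (log2 change 0.88, SE 0.13, edgeR adjusted p = 0.000349). The 95% intervals of these log2 changes were 0.64 to 1.17, 1.52 to 2.06 and 0.62 to 1.15. Among the 3 tested arms, miR-146a-5p was the 1 with a difference among the 3 times (edgeR adjusted p = 4.55e-08), where 1.71% of rows were called. Of the 3 tested arms, 1 was called at 5 h, where 1.57% of 701 rows were called (1.43% as higher and 0.143% as lower). At 12 h it was again 1 of 3, where 1.43% of rows were called against 0 h (0.999% as higher and 0.428% as lower, 7 and 3 rows, or 9 and 1 with upper quartile factors and 7 and 1 with library totals), and 1 of 3 between 12 h and 5 h, where 0.571% were called. By size of log2 change, 86.6% of rows lay below miR-146a-5p at 5 h and 93.6% at 12 h. By p-value it stood at rank 5 at 5 h and rank 3 at 12 h. In the main fit, miR-146a-5p was the single row called as higher at 12 h than at 5 h (0.143% of rows). That it stood alone depended on the setting. With no filter on counts 8 rows were called as higher, and with a term for replicate number in the fit 7 were. Leaving out replicate 1 of 12 h gave 7 such rows, and leaving out replicate 2 of 5 h gave 2. Each of the other alternatives gave 1.

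**Figure D1:**
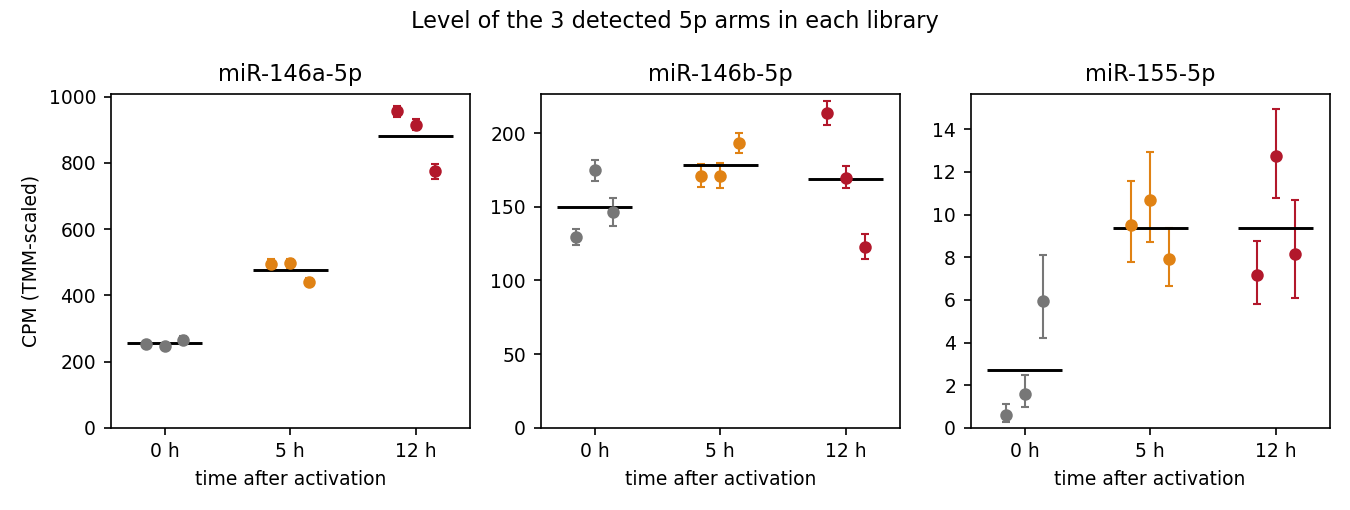
CPM of miR-146a-5p, miR-146b-5p and miR-155-5p (y axes, TMM-scaled, each starting at 0) at 0, 5 and 12 h (x axis). Points are libraries with exact 95% Poisson counting intervals and lines are means of 3. The miR-146a-5p groups are separate at all 3 times, the miR-146b-5p groups overlap, and for miR-155-5p the library of 0 h at 5.94 CPM lies just under the lowest activated library at 7.17 CPM.

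miR-146b-5p, which shares the seed, did not pass in any comparison. It had 129, 175 and 146 CPM in the replicates at 0 h, 171, 171 and 193 CPM at 5 h and 213, 169.7 and 123 CPM at 12 h. The 12 h libraries spanned both other groups, with the highest and the lowest of all 9 values among them. The means were 150.1 ± 22.9 CPM for 0 h, 178 ± 12.7 CPM for 5 h and 169 ± 45.4 CPM for 12 h (SD, n = 3 each). The log2 change was 0.25 at 5 h (95% interval -0.15 to 0.65, edgeR adjusted p = 0.996). At 12 h against 0 h it was 0.17 (95% interval -0.23 to 0.57, edgeR adjusted p = 0.974). Between 12 h and 5 h it was -0.08 (95% interval -0.48 to 0.32, edgeR adjusted p = 1). At 12 h against 0 h its interval (up to 0.57) and that of miR-146a-5p (from 1.52) did not overlap. At 5 h the intervals touched (up to 0.65, and from 0.64).

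The 2 miR-146 arms can be compared within each library, where no scaling enters. The ratio of miR-146a-5p to miR-146b-5p counts was 1.96, 1.42 and 1.81 at 0 h. It was 2.90, 2.90 and 2.29 at 5 h and 4.48, 5.39 and 6.31 at 12 h. The ratios of the 3 times did not overlap. On the log2 scale the ratio was 0.65 higher at 5 h than at 0 h, 1.64 higher at 12 h than at 0 h and 1.00 higher at 12 h than at 5 h. For each of these the exact two-sided permutation p was 0.1, the smallest that 3 against 3 libraries can give (adjusted p = 0.15 over the 12 ratio comparisons made). As a share of the 2 arms together, miR-146a-5p made up 63.1% ± 3.94 for 0 h, 72.8% ± 2.76 for 5 h and 84.1% ± 2.29 for 12 h (SD, n = 3 each).

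The summed level of the 2 arms, and thus of the GAGAACU seed, was 382, 422 and 411 CPM at 0 h. It was 666, 668 and 635 CPM at 5 h and 1169.6, 1085 and 897 CPM at 12 h. The sum was 1.62-fold higher at 5 h and 2.59-fold higher at 12 h than at 0 h (exact permutation p = 0.1 for both). Between 12 h and 5 h the sum was 1.60-fold higher at 12 h (exact permutation p = 0.1). These exact tests cannot go below 0.1. The split between the arms is uncertain to the extent that short reads were assigned to either.

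**Figure D2:**
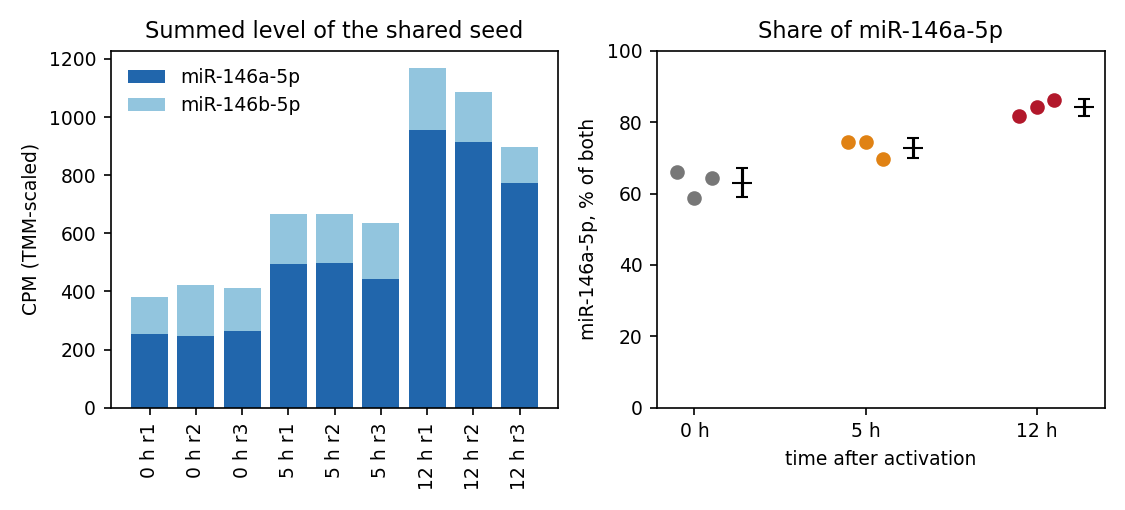
Left, stacked CPM (y axis) of miR-146a-5p and miR-146b-5p in each library (x axis, time and replicate). Right, miR-146a-5p as a percentage of both (y axis) by time, with points for libraries and the mean ± SD of 3 beside them. The summed bars grow with time, and the share goes through 63.1%, 72.8% and 84.1% at 0, 5 and 12 h.

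The course of miR-146a-5p was set beside those of miR-132-3p, a CREB-induced miRNA, and miR-21-5p, an AP-1 and STAT3 target, both abundant miRNAs that rise on activation. miR-21-5p is also in the list, given below, of arms reported to be transcribed under NF-kB. At 5 h, the increase of miR-146a-5p over 0 h in mean CPM was 35.5% of its increase at 12 h. This share was 89.0% for miR-132-3p and 70.7% for miR-21-5p. Per hour, the log2 change of miR-146a-5p was 0.18 over the first 5 h and 0.13 over the next 7 h. It was 0.57 and 0.02 for miR-132-3p, and 0.28 and 0.05 for miR-21-5p.

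The difference between the later and the earlier log2 change per hour was -0.05 for miR-146a-5p (95% interval -0.13 to 0.02, edgeR adjusted p = 0.924). The difference was -0.55 for miR-132-3p (95% interval -0.62 to -0.48, edgeR adjusted p = 1.01e-09). For miR-21-5p it was -0.23 (95% interval -0.32 to -0.15, edgeR adjusted p = 0.00392). A change of rate was called in 0.999% of rows, with a lower log2 change per hour after 5 h than before it in all 7, and miR-146a-5p was not among them. These 7 include rows whose fitted level was lower at 12 h than at 5 h, such as miR-222-5p. Measured as a ratio within libraries, miR-146a-5p lost ground to miR-132-3p at 5 h against 0 h (log2 -1.95) and gained at 12 h against 5 h (0.73). At 12 h against 0 h that ratio was still lower (-1.22). The ratio to miR-21-5p differed by -0.52 at 5 h against 0 h and by 0.56 at 12 h against 5 h. In these 5 comparisons the groups did not overlap and the exact permutation p was 0.1 (adjusted p = 0.15). At 12 h against 0 h the ratio to miR-21-5p differed by 0.04 and the groups overlapped (exact permutation p = 0.9).

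**Figure D3:**
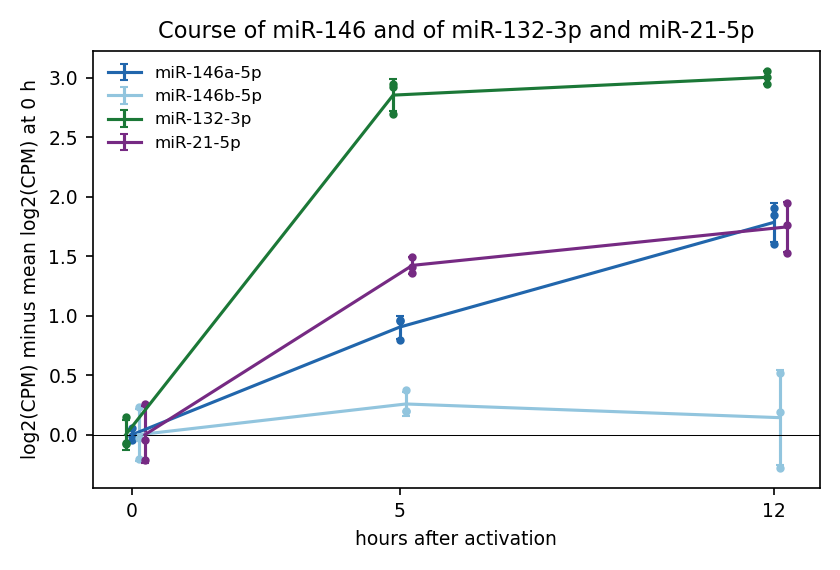
log2 CPM minus the mean at 0 h (y axis) against hours after activation (x axis). Points are libraries, shifted slightly sideways, and lines join means with the SD of 3 libraries. miR-132-3p is almost level between 5 h and 12 h, whereas miR-146a-5p goes on rising and meets miR-21-5p at 12 h, with log2 changes of 1.79 and 1.74.

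Over the 9 libraries, the 3 miRNAs whose log2 CPM was most like that of miR-146a-5p were miR-21-5p (Pearson r = 0.911), miR-142-3p (0.888) and miR-132-3p (0.878), among 244 miRNAs with a mean of at least 10 CPM. The most like miR-146b-5p were miR-30e-5p (0.919), miR-148b-3p (0.883) and miR-9-5p (0.870). Between miR-146a-5p and miR-146b-5p themselves r was 0.300. These values describe 9 libraries that share 3 times and differ in depth.

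miR-155-5p was far less abundant, and its test turned on 1 library of the unactivated cells. Its counts were 9, 21 and 39 in replicates 1, 2 and 3 at 0 h, 102, 104 and 135 at 5 h and 96, 151 and 52 at 12 h. In CPM these were 0.579, 1.61 and 5.94 at 0 h. They were 9.52, 10.7 and 7.92 CPM at 5 h and 7.17, 12.7 and 8.16 CPM at 12 h. Every activated library lay above every unactivated one, so that the groups did not overlap at 5 h or at 12 h against 0 h, which was seen in 10.8% and 12.1% of rows. Among the unactivated libraries, the counting interval of replicate 3 was 4.22 to 8.12 CPM and lay above those of replicate 1 (0.265 to 1.10 CPM) and replicate 2 (0.994 to 2.45 CPM), which overlapped.

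The mean of miR-155-5p was 2.71 ± 2.85 CPM for 0 h, 9.37 ± 1.38 CPM for 5 h and 9.36 ± 2.97 CPM for 12 h (SD, n = 3 each). The fold over 0 h was 3.46 at 5 h and 3.45 at 12 h. Neither passed: the log2 change was 1.84 at both times (95% interval 0.44 to 3.24 at 5 h and 0.43 to 3.24 at 12 h), with an edgeR adjusted p of 0.538 and 0.511 and an unadjusted p of 0.0130 and 0.0131. Without replicate 3 of 0 h, miR-155-5p was called at both times, with a log2 change of 3.09 at 5 h and 3.10 at 12 h (edgeR adjusted p = 0.0101 and 0.0111). Without replicates 1 or 2 of 0 h it was not called, with a log2 change of 1.37 and 1.51 at 5 h and 1.33 and 1.503 at 12 h. Between 12 h and 5 h its log2 change was 2.91e-05 (95% interval -1.23 to 1.23, edgeR adjusted p = 1). For miR-155-5p the later minus the earlier log2 change per hour was -0.37 (95% interval -0.76 to 0.02, edgeR adjusted p = 0.804). Without replicate 3 of 0 h this difference was -0.62 (edgeR adjusted p = 0.10). The biological coefficient of variation fitted for miR-155-5p was 57.8%, against 14.4% for miR-146a-5p and 19.8% for miR-146b-5p. The common value for all tested rows was 77%.

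In replicate 3 of 0 h, where miR-155-5p was highest among the unactivated cells, miR-146a-5p was at 265 CPM, against 253 and 248 CPM in the other 2. The summed markers of other cell types were at 274 CPM in that library, against 268 and 343 CPM, and its total count was 7083813, against 15121491 and 13417648. The part of depth in the miR-155-5p values was not tested.

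**Figure D4:**
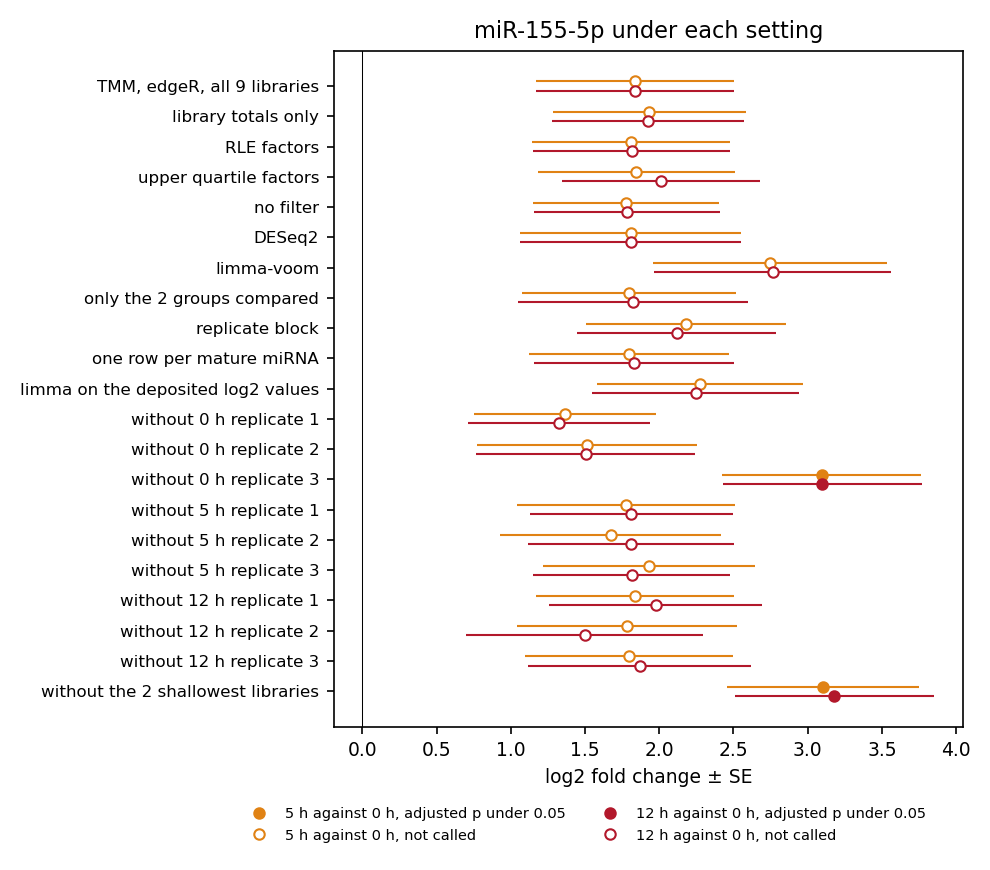
log2 fold change ± SE of miR-155-5p (x axis) at 5 h and 12 h against 0 h under each setting (rows). Filled points passed an adjusted p of 0.05 and open points did not. All values are above 0, and the filled ones are those without replicate 3 of 0 h, alone or with replicate 3 of 12 h.

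The order of levels was the same at each time: miR-146a-5p, then miR-146b-5p, then miR-155-5p. The libraries of neighbours in that order did not overlap within any time; at 0 h the lowest miR-146a-5p library was at 248 CPM and the highest miR-146b-5p library at 175 CPM. The arms are 22 to 24 bases long and their counts are not scaled by length. Efficiencies of capture in the library kit differ between sequences and were not measured.

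Reads came from the 5p arm of all 3 hairpins. miR-146a-3p had 0 counts in every library against 55171 counts of miR-146a-5p, and a limit of 3 counts for a count of 0 allows a 3p share of up to 0.00544% (the upper bound of the exact 95% binomial interval is 0.00669%). miR-155-3p had 0 counts against 709 of miR-155-5p, and the same limit of 3 counts allows a share of up to 0.423% (the upper bound of the exact 95% binomial interval is 0.519%). miR-146b-3p had 10 counts, all in replicate 1 of 5 h, against 17699 of miR-146b-5p (0.0565%, exact 95% binomial interval 0.0271 to 0.104%). With 0 counts of miR-146b-3p in the other 8 libraries, the ratio of the miR-146b arms was set by the pseudocount. Its exact permutation p was 0.8, 0.9 and 0.7 at 5 h against 0 h, 12 h against 0 h and 12 h against 5 h. These tests are among the 12 ratio comparisons adjusted for, and nothing is concluded from them. Of 115 hairpins with at least 10000 counts on 1 arm and both arms listed, 11 had 0 counts on the other, miR-146a among them, and 16 had at most 10, which takes in miR-146b. With 3p arms at or near 0, a change of a 3p arm was not detectable at this depth.

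The windows around the annotated starts of the 2 host genes are shown because miR-146a-5p rose and NF-kB and AP-1 are known to act on these genes. They run from 250 bases before to 50 bases after the RefSeq start (GRCh38.p14, plus strand), with matches in capitals. The motifs searched on both strands were the NF-kB (kB) consensus of 10 bases and the AP-1 site TGAGTCA, and no matches overlapped.
MIR3142HG: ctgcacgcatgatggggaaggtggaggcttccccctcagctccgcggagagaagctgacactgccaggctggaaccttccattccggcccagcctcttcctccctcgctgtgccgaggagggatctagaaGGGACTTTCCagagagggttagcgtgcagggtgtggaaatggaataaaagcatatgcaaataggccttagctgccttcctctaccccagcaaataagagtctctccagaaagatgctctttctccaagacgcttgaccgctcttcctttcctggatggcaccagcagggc
MIR155HG: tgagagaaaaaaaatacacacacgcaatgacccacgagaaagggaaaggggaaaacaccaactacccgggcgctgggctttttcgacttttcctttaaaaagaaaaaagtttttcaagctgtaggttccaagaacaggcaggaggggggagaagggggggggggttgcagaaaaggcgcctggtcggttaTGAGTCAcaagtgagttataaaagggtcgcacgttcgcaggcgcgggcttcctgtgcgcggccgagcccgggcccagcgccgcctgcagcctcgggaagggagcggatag
The MIR3142HG window, chr5:160468001-160468300, held 1 match to the kB consensus on its plus strand, 120 bases before the start, and none to TGAGTCA. Of 35116 promoter windows of this length, 2075 (5.91%) held a match to that consensus. The MIR155HG window, chr21:25561895-25562194, held 1 match to TGAGTCA on its plus strand, 60 bases before the start, and none to the kB consensus. TGAGTCA was in 1738 of the windows (4.95%). The GENCODE 29 start of MIR155HG, and 1 of 2 starts of MIR3142HG, lie upstream of these RefSeq starts. The motifs were chosen after values or windows were seen, and a kB match was already known. The shares of windows are therefore no test of these matches. A match is a description of the letters and binding was not measured.

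Other miRNAs linked to NF-kB were compared with miR-146 and miR-155. In a list of 14 arms reported to be transcribed under NF-kB in some cell type, 10 were tested. With edgeR, 4 rose and 0 fell at 5 h against 0 h, where 1.57% of all rows were called: both arms of miR-21 and both of miR-222. The results of these arms were already known when the list was written, which partly sets the counts and medians of the list in advance. The other tested arms of the list passed in no comparison with edgeR. At 12 h against 0 h 2 rose and 0 fell, both arms of miR-21, where 1.43% of rows were called. At 12 h against 5 h 0 rose and 1 fell, miR-222-5p, where 0.571% of rows were called. The median log2 change of the list was 0.48, 0.15 and -0.30 in these comparisons, against 0.03, 0.01 and -0.03 over all tested rows. DESeq2 called 4, 3 and 1 of the 10 and limma-voom 4, 2 and 2. At an unadjusted p under 0.05, edgeR had 7, 4 and 5.

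miR-21-5p was at 255 ± 43.1 CPM for 0 h, 679 ± 32.4 CPM for 5 h and 854 ± 123 CPM for 12 h (SD, n = 3 each), which at 0 h and 12 h is close to miR-146a-5p. miR-222-3p, which targets p27 and thereby a brake on cell division, was at 717 ± 42.0 CPM for 0 h, 1011 ± 51.6 CPM for 5 h and 971 ± 65.0 CPM for 12 h. Its log2 change at 5 h was 0.49 (edgeR adjusted p = 0.0230). The 3 most abundant arms of the list that did not pass were miR-9-3p, miR-221-3p and miR-301a-3p. miR-221-3p was at 422 ± 55.8, 582 ± 51.6 and 518 ± 63.4 CPM at 0, 5 and 12 h, with a log2 change of 0.46 at 5 h (edgeR adjusted p = 0.215). miR-9-3p was at 609 ± 59.0, 591 ± 75.1 and 562 ± 55.9 CPM, and miR-301a-3p at 168 ± 24.6, 187 ± 18.4 and 141 ± 8.91 CPM at 0, 5 and 12 h. miR-34a-3p and miR-224-5p had 0 counts in all 9 libraries. The miR-21 and miR-222 arms were known from earlier results of these data when the list was written.

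In a list of 13 miRNAs reported to act on components of the NF-kB pathway, 11 were tested, and with edgeR 0 rose and 0 fell in any of the 3 comparisons, as with DESeq2 and limma-voom. At an unadjusted p under 0.05, edgeR had 1 of the 11 at 5 h against 0 h and 0 in the other 2 comparisons. Their median log2 change was -0.07 at 5 h and -0.03 at 12 h against 0 h, and 0.04 at 12 h against 5 h. The most abundant were miR-16-5p, miR-181b-5p and miR-26b-5p. miR-181b-5p, reported to repress importin alpha 3, was at 16471 ± 1241 CPM for 0 h, 15656 ± 958 CPM for 5 h and 17810 ± 3022 CPM for 12 h. miR-16-5p, reported to target the IkB kinase IKKalpha, was at 64169 ± 2630 CPM for 0 h, 60299 ± 6585 CPM for 5 h and 62050 ± 2824 CPM for 12 h. miR-26b-5p was at 16511 ± 2135, 16373 ± 2169 and 16146 ± 811 CPM at 0, 5 and 12 h. Each of these exceeded the highest miR-146a-5p library, at 956 CPM, in every group mean.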

How the data were processed

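Small RNA of 9 Jurkat libraries was analysed. The authors deposited raw counts per pair of precursor and mature miRNA, with genome build GRCh38.p13 and DESeq2 named per the submitters' processing notes. No aligner or counter is named in the sources used here. A deposited table of log2 values holds the 430 rows above 0 in all 9 libraries, equals log2(count / factor + 1) to within 5.05e-09, and was used in an alternative. Of 1214 rows above 0, 701 passed filterByExpr (minimum count 10, total 15). They were scaled by TMM and fitted in edgeR 4.0.16 by the quasi-likelihood test, with 1 mean per time and Benjamini-Hochberg adjustment over all rows (threshold 0.05). The SE is the log2 change over the root of F. The change of rate was the contrast of log2 change per hour (5 h to 12 h minus 0 h to 5 h). Ratios within libraries (pseudocount 0.5) were tested by exact two-sided permutation. Replicates were separate libraries (chi-square per degree of freedom 112 or more). The fit was also run on counts simulated from its own means, library sizes and spreads. That run does not test how the fit handles a single outlying library. Members and lists were chosen with earlier results of these data known. Named miRNAs were all members, listed miRNAs that passed and the 3 most abundant others of each list, 2 comparators and the 3 most alike. miR-34a-3p, miR-224-5p, miR-3142 and the marker miRNAs were named, and the motifs chosen, after values or windows were seen. The kB consensus replaced a fixed kB sequence whose match was already known. Tools were R 4.3.3, limma 3.58.1, DESeq2 1.42.0, Python 3.11.15, scipy 1.17.1 and matplotlib 3.10.9.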

Additional observations from a re-analysis of the deposited data

How the results depend on the processing

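The alternatives were other scalings, filters, tools, samples in the fit, 1 row per mature miRNA, the deposited log2 values, the replicate number as a block and each library left out. The miR-146a-5p calls held in all 21 alternatives of each comparison, with a log2 change of 0.82 to 0.96 at 5 h, 1.69 to 1.95 at 12 h and 0.80 to 1.05 between 12 h and 5 h. miR-155-5p was called without replicate 3 of 0 h (3.09 at 5 h, 3.10 at 12 h; range without single libraries 1.37 to 3.09 and 1.33 to 3.10). It was also called without the 2 shallowest libraries, chosen after seeing the data (3.10 and 3.18, adjusted p = 0.0296 and 0.0393). With the stricter filter (10 CPM in 3 libraries) miR-155-5p was not tested. With the replicate block its log2 change was 2.18 at 5 h and 2.12 at 12 h (adjusted p = 0.0712 and 0.0940), against 1.84 at both times without it. It was 2.75 and 2.76 with limma-voom (adjusted p = 0.107 and 0.116) and 2.28 and 2.24 with the deposited log2 values (adjusted p = 0.341 and 0.381). The block gave 13, 11 and 11 calls at 5 h against 0 h, 12 h against 0 h and 12 h against 5 h, against 11, 10 and 4 without it. Same-numbered libraries were not shown to be pairs (their deviations correlated at -0.179 to 0.255, and 4 of 9 correlated best with their own number). Other counts that moved were 17 without a filter and 5 with the deposited log2 values at 5 h, 6 with the 2 groups alone and 6 with the deposited log2 values at 12 h, and 12 without a filter between 12 h and 5 h. Leaving out single libraries gave 9 to 11, 8 to 10 and 3 to 10 calls, the last without replicate 1 of 12 h. The changes that turned sign had not passed and did not pass. For miR-146b-5p between 12 h and 5 h the log2 change was 0.086 with upper quartile factors and 0.088 without the 2 shallowest libraries. For miR-155-5p between 12 h and 5 h it was -0.0099 with library totals, -0.061 with the block and -0.032 with the deposited values. Without single libraries, miR-146b-5p spanned -0.075 to 0.32 at 12 h against 0 h and -0.31 to 0.087 at 12 h against 5 h, and miR-155-5p -0.29 to 0.14 at 12 h against 5 h. The log2 ratio of the miR-146b arms is set by the pseudocount, as the 3p arm was at 0 in 8 libraries: it was -1.07, 0.0093 and 1.08 with 0.5 counts and -0.13, 0.0096 and 0.14 with 5 counts. Without single libraries it spanned -2.10 to 0.51, -0.39 to 0.55 and -0.50 to 2.11 at 5 h against 0 h, 12 h against 0 h and 12 h against 5 h. The log2 ratio of miR-146a-5p to miR-21-5p spanned -0.11 to 0.17 at 12 h against 0 h. The difference in log2 change per hour did not pass in any alternative for the 3 arms, and without single libraries it spanned -0.068 to -0.030 for miR-146a-5p, -0.092 to -0.034 for miR-146b-5p and -0.62 to -0.28 for miR-155-5p. The cause of these moves was not tested. The wide miR-155-5p counting intervals at 0 h did not all overlap. Upper quartile factors moved the median log2 change of all rows to 0.17 at 12 h against 0 h and 0.13 at 12 h against 5 h, against 0.01 and -0.03 with TMM.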
